A study of Mus musculus with 10 samples.

Results

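The comparison was between leukemia lines made by different transforming genes, 3 mouse lines transformed by NUP98-JARID1A against 4 untreated mouse RH-RAS lines, taken as 7 of the 10 arrays of a study of leukemia stem cell lines, and every gene on the array was considered. RH-RAS lines were established outside the animal by coexpressing DNMT3A that carries R882H with NRAS that carries G12D. NUP98-JARID1A joins NUP98, a protein of the nuclear pore, to JARID1A, an enzyme that removes methyl groups from histones. RH-RAS lines 1 to 4 are described as derived independently. Nothing says this of NUP98-JARID1A lines 1 to 3, so on that side the p-values measure only the spread among these samples, which may be technical. All 7 cultures were kept in Opti-MEM medium with serum, antibiotics, mercaptoethanol and stem cell factor, the ligand of the receptor Kit, and none of the 7 received the Dot1l inhibitor used elsewhere in the study. The sources used here name no strain, vector or promoter for the transforming genes. Total RNA was hybridised to Affymetrix Mouse Genome 430 2.0 arrays, 1 per line, and the values are log2 intensities made with RMA, which corrects background, normalises the arrays and gives each probe set a single value. Each gene is read by its brightest probe set. Other probe sets are quoted or counted only where they exceeded the array median in at least 2 of the 10 arrays. Means over the probe sets of a gene use all of them. A difference between groups is a log2 fold change, the NUP98-JARID1A mean minus the RH-RAS mean, given with its standard error, and a gene passed the test when its Benjamini-Hochberg adjusted p in limma was under 0.05.

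The lines were not equally alike. Counted over all genes (related measures, not replicates), RH-RAS lines 1 to 3 differed from each other by more than 1 on the log2 scale in 3 to 19 genes. RH-RAS line 4 stood apart from them in 225 to 255 genes. The NUP98-JARID1A lines were farther apart still, at 515 to 725 genes per pair, and 355 genes had an SD over 1 among them against 25 among the RH-RAS lines. Between the groups, 1895 to 2344 genes were apart per pair of lines. Within its group NUP98-JARID1A line 2 carried the lowest level of many granule genes. RH-RAS line 4 carried the highest level of its group for several monocyte genes. Values without either line are therefore given where they bear on a result. The array medians lay between 5.72 and 5.82. RMA compresses low intensities, so a change that begins or ends below those medians comes out too small. Precision is limited by there being 3 and 4 arrays, and in bulk RNA fewer cells of a type and less RNA per cell cannot be told apart.

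Granulocytes and monocytes arise from shared progenitors, and their maturation is ordered. The transcription factors PU.1 and C/EBPα set up the myeloid program, C/EBPε and Gfi1 carry it on to neutrophils, and granule proteins appear in waves, with primary (azurophil) granule proteases in promyelocytes and secondary and tertiary granule proteins later. Both transforming events compared here are known from acute myeloid leukemia. DNMT3A methylates DNA, R882H is its hotspot mutation, and NRAS that carries G12D keeps the MAPK pathway switched on. In NUP98-JARID1A the fusion keeps the finger domain of JARID1A (Kdm5a) that reads trimethylated lysine 4 of histone H3, and such fusions are known to hold Hoxa genes and Meis1 in an active state.

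Differences were widespread. Of 11993 genes tested, 6113 (51.0%) passed, 3897 (32.5%) of them higher and 2216 (18.5%) lower in the NUP98-JARID1A lines. Leaving out any single line brought the number that passed to between 5121 and 5899. At least 2-fold differences numbered 1241 higher (10.3%) and 644 lower (5.37%), and differences of at least 16-fold numbered 88 higher (0.734%) and 41 lower (0.342%). For 6576 genes (54.8%) the groups did not overlap. The median log2 fold change of all genes tested was 0.10. Among the 1241 genes, 301 (24.3%) were under the array median in all 4 RH-RAS lines. Among the 644, 113 (17.5%) were under it in all 3 NUP98-JARID1A lines. The counts for each gene list described next are to be read against these shares. Where such a count is 0, limma also found 0 members in that direction at an unadjusted p under 0.05.

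**Figure D1:**
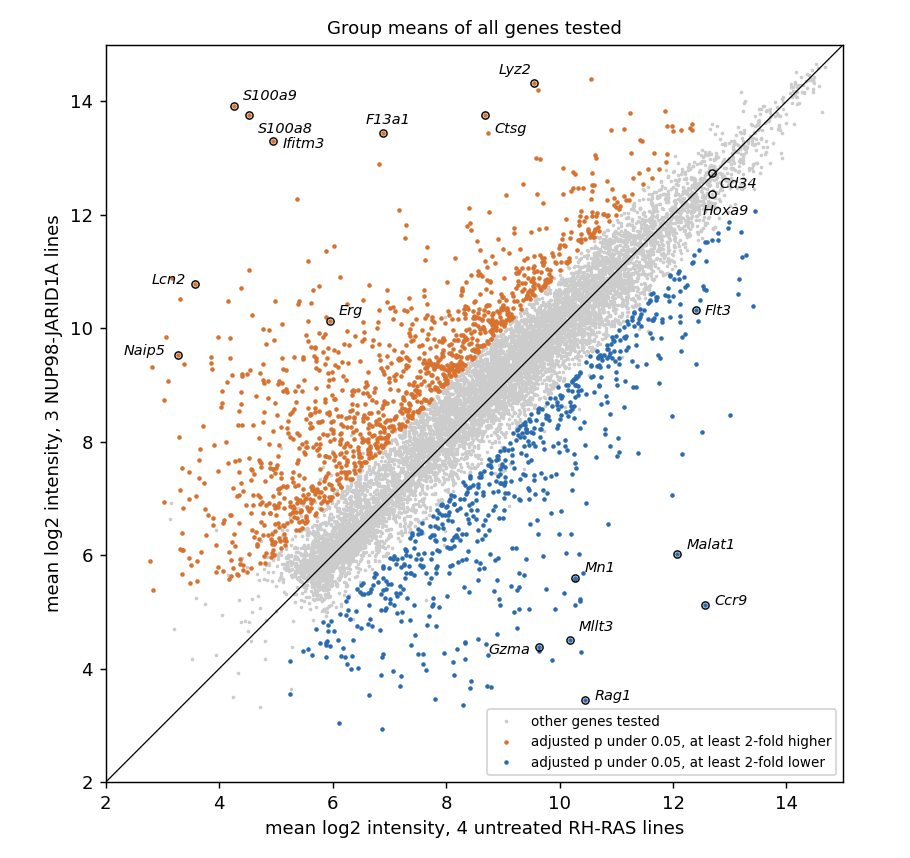
Mean log2 intensity in the 4 untreated RH-RAS lines (x axis) and in the 3 NUP98-JARID1A lines (y axis) for the 11993 genes tested, 1 point per gene. Orange points mark the 1241 genes at least 2-fold higher, blue points the 644 at least 2-fold lower and grey points all other genes tested, and the line marks equal means. S100a9 and S100a8 lie at the upper left, Ccr9 and Rag1 at the lower right, and Cd34 and Hoxa9 near the line.

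The genes of mature neutrophils stood highest. S100a9 and S100a8 code for the subunits of calprotectin, the calcium-binding protein that fills the neutrophil cytosol. The bases just before the start of each are shown since these genes had the largest differences, and the late neutrophil genes moved together. Both are RefSeq promoters of assembly GRCm38.p6, read 5′ to 3′ along the gene, with any match to TTNNGCAA (a C/EBP motif) or GAGGAAGT (a PU.1 motif), on either strand, in capitals.
S100a9, chr3:90695722-90695971, minus strand: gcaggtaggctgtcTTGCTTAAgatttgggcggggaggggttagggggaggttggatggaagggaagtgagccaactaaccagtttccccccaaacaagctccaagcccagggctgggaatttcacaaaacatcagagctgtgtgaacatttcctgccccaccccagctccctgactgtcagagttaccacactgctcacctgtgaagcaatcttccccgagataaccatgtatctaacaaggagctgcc
S100a8, chr3:90668821-90669070, plus strand: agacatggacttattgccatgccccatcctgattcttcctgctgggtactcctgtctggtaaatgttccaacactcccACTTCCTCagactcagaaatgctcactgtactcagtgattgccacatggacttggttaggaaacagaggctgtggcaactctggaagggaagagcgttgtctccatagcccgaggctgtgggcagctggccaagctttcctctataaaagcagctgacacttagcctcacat
The match in S100a9 begins at −236 and is TTNNGCAA on the opposite strand, and the match in S100a8 begins at −172 and is GAGGAAGT on the opposite strand, both counted from the start of the gene. S100a9 held no match to GAGGAAGT in this window, and S100a8 none to TTNNGCAA. Of 23 such promoters, found for 22 of the 25 late neutrophil genes on the array, 6 (26.1%) held TTNNGCAA and 4 (17.4%) GAGGAAGT, against 9.56% and 2.44% of all 32851 mouse promoters of the same 250 bases. For the genes at least 2-fold higher the shares were 9.69% and 3.73%, and for those at least 2-fold lower 7.97% and 2.19%. Among the 12393 promoters of all genes tested, 929 held TTNNGCAA, a smaller share than for either the higher or the lower genes. GAGGAAGT was held by 313 of them (2.53%), between the shares of the higher and the lower genes. Whether these shares differ by more than chance was not tested. Of 11 promoters of primary granule genes, 0 held TTNNGCAA and 4 (36.4%) held GAGGAAGT. A match is only a run of letters in this window, not a site.

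S100a9 read 4.55, 4.06, 3.98 and 4.42 in RH-RAS lines 1 to 4 and 14.52, 12.93 and 14.32 in NUP98-JARID1A lines 1 to 3, the order kept below. S100a8 read 4.63, 4.54, 4.46 and 4.48 against 14.29, 12.78 and 14.20. Every RH-RAS value of both genes was below the array median and every NUP98-JARID1A value far above it, with line 2 the lowest of the 3. The differences were 9.67 ± 0.38 (815-fold, adjusted p = 5.31e-06) and 9.23 ± 0.34 (600-fold, adjusted p = 5.13e-06), and without line 2 they were 10.17 and 9.71.

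Lcn2, the iron-scavenging lipocalin of secondary granules, was at 3.40, 3.65, 3.57 and 3.70 in the RH-RAS lines and at 12.20, 8.53 and 11.60 in the NUP98-JARID1A lines. Ngp, the neutrophilic granule protein, was at 5.44, 5.45, 5.10 and 5.47 against 14.25, 9.86 and 12.71. In both genes the groups were separated by a wide gap while NUP98-JARID1A line 2 lay well under lines 1 and 3. Lcn2 was higher by 7.19 ± 0.79 (146-fold, adjusted p = 0.000336) and Ngp by 6.91 ± 0.89 (120-fold, adjusted p = 0.000678). Stfa3 and Stfa2l1, stefins that inhibit cysteine proteases, were higher by 7.21 ± 0.90 and 6.50 ± 0.63, although stefin copies are nearly identical and the probe sets may read more than 1 of them. Olfm4, which marks a subset of neutrophils, was higher by 6.77 ± 0.84. Chil3, a chitinase-like protein, spread most within the group: NUP98-JARID1A lines 1 and 3 read 12.16 and 10.77 and line 2 read 5.20, below the array median, against 3.31 to 3.48 in the RH-RAS lines. Its difference of 6.0 ± 1.46 (adjusted p = 0.0115) became 8.09 without line 2.

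Over the whole list of secondary and tertiary granule and late neutrophil genes, 25 of 31 were on the array and 24 were tested. Of these 22 were higher, all by at least 2-fold, none was lower and 2 did not pass, against the 32.5% of all genes that were higher. The median difference of the 25 was 4.92, beside 0.10 for all genes tested. As 18 of the 24 were under the array median in all 4 RH-RAS lines, they came into the test through other lines, and the count describes them only. Cxcr2 was too low to test. The 2 that did not pass were Mmp9† (1.08 ± 0.51) and Itgb2l† (1.83 ± 0.67), where NUP98-JARID1A line 2 read 6.16 and 6.40 and line 1 read 8.53 and 9.62. (A dagger marks a gene named after its values were seen.) Without line 2 all 24 passed. Mean levels of the list were 4.96 to 5.09 in the RH-RAS lines, and 11.09, 8.22 and 10.17 in NUP98-JARID1A lines 1 to 3.

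**Figure D2:**
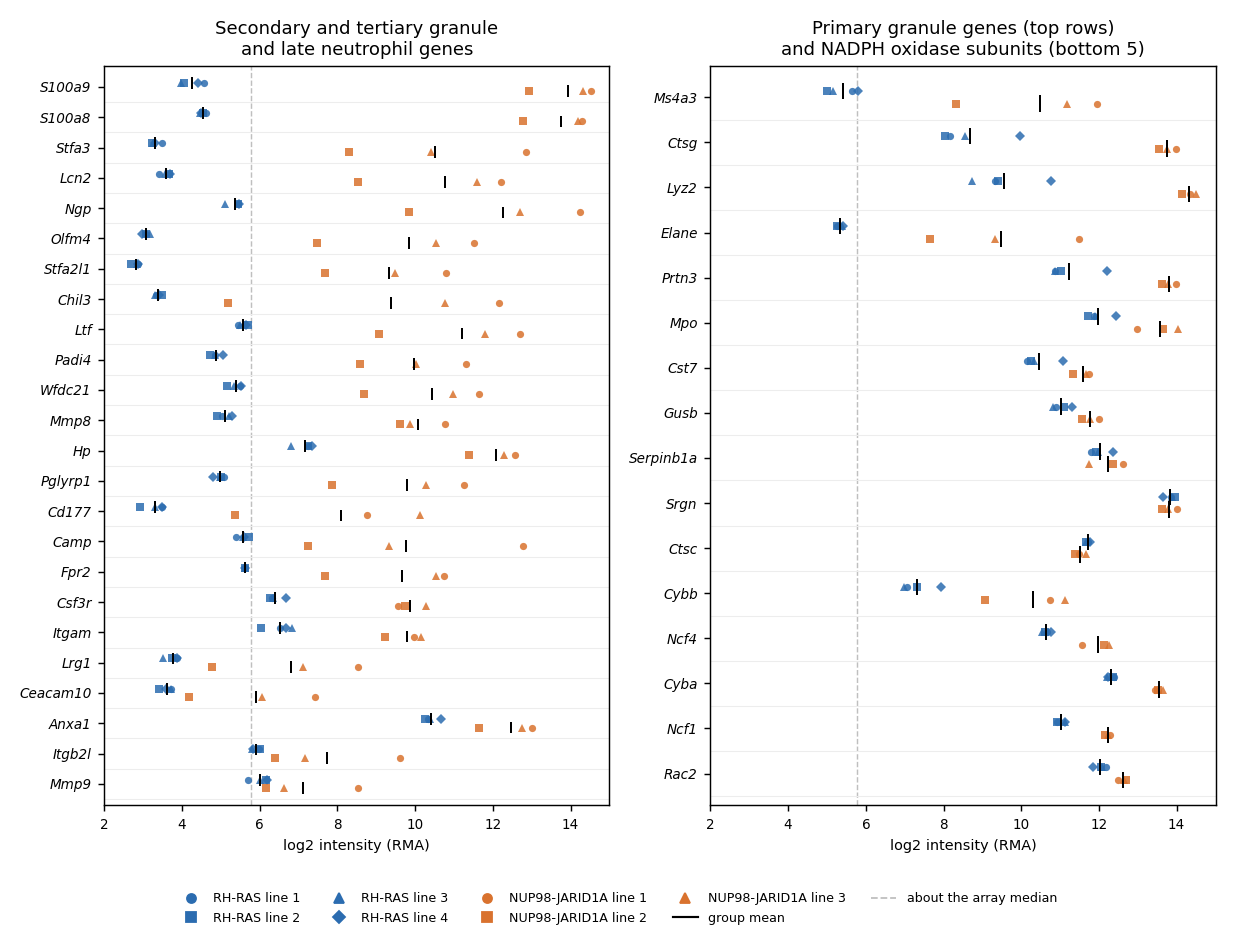
Log2 intensity (x axes) in each of the 7 lines for the late neutrophil genes tested (left) and for primary granule genes and NADPH oxidase subunits (right), 1 row per gene, blue for RH-RAS and orange for NUP98-JARID1A lines, with a black bar at each group mean and a dashed line near the array median. NUP98-JARID1A line 2 (orange square) is the lowest of its group for most late neutrophil genes, and Srgn and Ctsc at the lower end of the primary granule genes show overlapping groups.

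Genes of the primary granule, which is made earlier, differed less, and the RH-RAS lines carried several of them at high levels. Mpo†, myeloperoxidase, read 11.86, 11.72, 11.91 and 12.43 in the RH-RAS lines and 12.98, 13.66 and 14.05 in the NUP98-JARID1A lines. The groups did not overlap, and the difference was 1.58 ± 0.27 (2.99-fold, adjusted p = 0.00231). Ctsg, the protease cathepsin G, read 8.17, 8.04, 8.56 and 9.98 against 13.97, 13.54 and 13.75. RH-RAS line 4 was the nearest of its group to the NUP98-JARID1A lines. Ctsg was higher by 5.06 ± 0.45 (33.5-fold, adjusted p = 0.000136), and by 5.50 without line 4. Elane, neutrophil elastase, read 5.26, 5.25, 5.40 and 5.41 against 11.49, 7.65 and 9.32, so that it was near background in every RH-RAS line and spread widely in the other group (4.16 ± 0.77, adjusted p = 0.00337). Lyz2, lysozyme, was higher by 4.76 ± 0.43 and Ms4a3, a membrane protein of granulocyte and monocyte progenitors, by 5.08 ± 0.78.

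All 11 primary granule genes on the array were tested. Of these 8 were higher, 7 of them at least 2-fold, none was lower and 3 did not pass, with a median of 1.58. Leaving out NUP98-JARID1A line 3 put 1 member lower. The 3 that did not pass were Ctsc† (−0.20), which activates the granule proteases, Srgn† (−0.03), the proteoglycan that packs them, and Serpinb1a† (0.23), which inhibits them. RH-RAS line 4 had the highest mean of its group on this list, 10.61 against 9.94 to 9.96 in lines 1 to 3, and NUP98-JARID1A lines were at 11.92 to 12.78. All 5 subunits of the NADPH oxidase on the array, the enzyme of the respiratory burst, were higher. Cybb, its catalytic core, was higher by 2.99 ± 0.49, Ncf4 by 1.34 ± 0.17, Cyba by 1.24 ± 0.09, Ncf1 by 1.21 ± 0.09 and Rac2† by 0.57 ± 0.10. RH-RAS lines read 12.21 to 12.39 for Cyba, against 13.44 to 13.65 in the NUP98-JARID1A lines.

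Monocyte and macrophage genes followed in part. F13a1, coagulation factor XIII of monocytes and platelets, read 6.55, 6.56, 6.32 and 8.15 against 13.53, 12.98 and 13.83. RH-RAS line 4 was the highest of its group, yet far below the others, and the difference was 6.55 ± 0.45 (93.6-fold, adjusted p = 5.5e-05). Csf1r†, through which macrophages receive their colony-stimulating factor, read 7.87, 7.77, 7.71 and 10.13 against 11.41, 11.64 and 12.38. The difference of 3.44 ± 0.61 (adjusted p = 0.0028) was 4.03 without line 4. Clec7a, the receptor for fungal glucans, was higher by 3.98 ± 0.54, Adgre1 (F4/80) by 3.93 ± 0.43 and Ms4a6d by 3.49 ± 0.65. Cd14, a coreceptor for lipopolysaccharide, read 6.77, 6.94, 7.84 and 10.35 against 9.38, 9.81 and 11.42. Its groups overlapped through line 4 and it did not pass (2.23 ± 0.91, adjusted p = 0.0767), while without line 4 it did (3.02, adjusted p = 0.00575). Of 24 genes tested among the 27 on the array, 15 were higher (12 at least 2-fold), 2 were lower and 7 did not pass, with a median of 1.27, and of 1.03 over the 27. The 2 lower were Ly86† (−2.47 ± 0.46), a partner of a Toll-like receptor relative, and Fcgr1† (−1.16 ± 0.40, adjusted p = 0.0446), a high-affinity IgG receptor, and Fcgr1 failed the test when any line but RH-RAS line 4 was left out. RH-RAS line 4 averaged 7.83 on this list against 6.99 to 7.01 in lines 1 to 3 and 8.38 to 9.23 in the NUP98-JARID1A lines.

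Some chemokine genes were higher too. Ccl9 read 8.24, 8.37, 8.19 and 10.13 against 13.51, 13.43 and 13.41. The 3 NUP98-JARID1A lines lay within a range of 0.10 while RH-RAS line 4 stood above its group (4.72 ± 0.46, 26.3-fold, adjusted p = 0.000206, and 5.18 without line 4). Ccl6 was higher by 3.50 ± 0.28, Csf1, the ligand of Csf1r, by 2.26 ± 0.14 and Alox5ap, which leukotriene synthesis needs, by 1.90 ± 0.11. Among 19 inflammatory cytokine and NF-kB genes tested 11 were higher (8 at least 2-fold), none was lower and 8 did not pass, with a median of 0.53. The chemokines Ccl5† (0.12) and Cxcl1† (0.18) were among those that did not pass. The leukocyte integrin chain Itgam (CD11b) read 6.52, 6.02, 6.84 and 6.68 against 9.98, 9.22 and 10.14, a difference of 3.27 ± 0.27 (9.61-fold, adjusted p = 0.000107) with no overlap. Itgb3 was higher by 2.22 ± 0.30 (0.39 on its other probe set) and Itga5, a fibronectin receptor chain, by 2.06 ± 0.12. Of 22 integrin and adhesion genes 11 were higher, 2 were lower and 9 did not pass, with a median of 0.54. The 2 lower were Cdh1, E-cadherin (−4.77 ± 0.73; RH-RAS 8.82, 8.93, 9.67 and 6.26 against 3.52 to 3.79), and the integrin chain Itga4† (−1.91 ± 0.14).

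Receptors for growth factors and cytokines went both ways. Csf3r, the receptor for granulocyte colony-stimulating factor, read 6.31, 6.27, 6.34 and 6.68 against 9.55, 9.75 and 10.29. The groups were well apart, at a difference of 3.46 ± 0.19 (11-fold, adjusted p = 2.03e-05). Kit, whose ligand was in the medium of every culture, read 10.52, 10.40, 10.71 and 9.91 against 11.94, 12.27 and 11.97 (1.68 ± 0.19, adjusted p = 0.000392). Flt3, the other tyrosine kinase receptor of early progenitors, went the opposite way. It read 12.45, 12.48, 12.29 and 12.38 against 9.89, 11.03 and 10.06, a difference of −2.07 ± 0.25 (4.20-fold lower, adjusted p = 0.000547). Among the receptors at the other end were Il18r1 (−4.74 ± 0.16), the decoy receptor Il1r2 (−4.30 ± 0.54) and Il7r, the lymphoid growth factor receptor (−3.55 ± 0.64). Of 26 receptor genes tested 14 were higher (10 at least 2-fold), 7 were lower (5 at least 2-fold) and 5 did not pass, with a median of 0.43.

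Outside these lists, several of the largest increases were in enzymes and membrane proteins. Ifitm3, an antiviral membrane protein, read 4.00, 4.98, 4.90 and 5.93 against 13.50, 13 and 13.41. The difference of 8.35 ± 0.40 (326-fold, adjusted p = 1.38e-05) was the third largest after the S100 genes among those with no overlap. Mgst1, a membrane-bound glutathione transferase, read 3.05 to 3.31 in the RH-RAS lines and 11.44, 9.23 and 11.97 in the NUP98-JARID1A lines (7.71 ± 0.58, 210-fold), and its cytosolic relative Gstm1 was higher by 6.09 ± 0.25. Naip5, a cytosolic sensor of bacterial flagellin, was among the genes with the smallest adjusted p: 3.32, 3.41, 3.21 and 3.19 against 9.41, 9.33 and 9.84 (6.25 ± 0.14, adjusted p = 8.65e-07), with close paralogues that its probe set may also read. F2rl3, a thrombin receptor, and Fndc3b, a fibronectin type III domain protein, had similarly small adjusted p, at 4.48 ± 0.10 and 5.42 ± 0.15. Fndc3b read 5.78 to 6.33 against 11.40 to 11.50. Igsf6, an immunoglobulin superfamily receptor of myeloid cells (6.49 ± 0.37), Pygl, glycogen phosphorylase (6.33 ± 0.51), and Papss2, which makes the donor for sulfation (6.33 ± 0.25), complete the 15 largest increases.

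Regulators of myeloid fate moved in both directions. Cebpa, which codes for C/EBPα, read 8.52, 8.48, 8.65 and 8.59 against 11.67, 10.69 and 10.44. The RH-RAS lines were nearly identical and all lay below the others (2.37 ± 0.27, 5.18-fold, adjusted p = 0.000384). Cebpd was higher by 2.47 ± 0.27. Spi1, which codes for PU.1, read 9.99, 9.94, 10.09 and 10.12 against 11.49, 11.54 and 11.72 (1.55 ± 0.09, adjusted p = 2.53e-05), and Gfi1 read 8.44, 8.72, 8.39 and 8.98 against 10.58, 9.65 and 10.29 (1.54 ± 0.24, adjusted p = 0.00153). All 3 factors were thus higher in each NUP98-JARID1A line than in any RH-RAS line. Cebpe, which codes for C/EBPε, was not among the genes tested. Irf8, which favours monocytes and dendritic cells, did not pass, at 9.83, 9.79, 10.12 and 10.85 against 10.45, 10.96 and 10.81 (0.59 ± 0.27, adjusted p = 0.103). RH-RAS line 4 lay among the NUP98-JARID1A values, and without it the gene passed (0.82, adjusted p = 0.00706). Another probe set of the gene gave −0.23.

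Inhibitors of basic helix-loop-helix factors moved apart. Id1 read 5.38, 5.55, 5.09 and 5.87 against 9.92, 9.22 and 9.32 (4.02 ± 0.23, adjusted p = 2.36e-05). Id2 read 11.82, 12.12, 12.22 and 11.72 against 8.63, 8.18 and 8.54 (−3.52 ± 0.16, 11.5-fold lower, adjusted p = 1e-05). Neither gene overlapped between the groups. Nfe2, an erythroid and megakaryocytic factor, read 8.67, 8.56, 8.54 and 7.87 against 12.14, 12.27 and 11.93 (3.70 ± 0.20). Of 29 transcription factors tested, 11 were higher (10 at least 2-fold), 8 lower (6 at least 2-fold) and 10 did not pass, with a median of 0.59. Egr1, an immediate early gene and the third largest decrease of the list after Id2 and Klf5† (−2.04 ± 0.43), was at −1.91 ± 0.49. Trib2, a pseudokinase known to promote the breakdown of C/EBPα, read 10.11, 9.84, 10.45 and 8.13 against 4.09, 4.22 and 4.65 (−5.32 ± 0.52, 39.8-fold lower, adjusted p = 0.000209).

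The Hoxa cluster, a program known from such leukemias, differed in both directions, by 2.23-fold at most among the genes tested. Hoxa9, the member most tied to leukemic self-renewal, read 12.78, 12.76, 12.83 and 12.37 against 12.36, 12.36 and 12.40. RH-RAS line 4 matched the NUP98-JARID1A lines, and the difference of −0.31 ± 0.12 did not pass (adjusted p = 0.0632), while without line 4 it was −0.42 and passed. Hoxa5 and Hoxa7 did not pass, at 0.47 ± 0.26 (adjusted p = 0.159) and 0.31 ± 0.12 (adjusted p = 0.0635). Hoxa10 read 10.00, 10.37, 10.31 and 10.26 against 9.29, 8.82 and 9.14, lower in every NUP98-JARID1A line (−1.15 ± 0.14, 2.23-fold lower, adjusted p = 0.000483), and Hoxa11 was at −1.03 ± 0.15. Hoxa2 and Hoxa3, at the other end of the cluster, were higher, at 0.98 ± 0.24 and 0.57 ± 0.11, and Hoxa2 was at 0.65 without NUP98-JARID1A line 2. The 7 genes tested of 9 on the array thus gave 2 higher, 2 lower and 3 not past the test (median 0.31). Hoxa4 and Hoxa13 were too low to test.

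Hoxb genes were higher where they could be tested. Hoxb5 read 3.18, 3.69, 3.56 and 3.52 against 5.85, 6.63 and 4.07 (2.03 ± 0.53, adjusted p = 0.0157), Hoxb3 was higher by 1.54 ± 0.35 and Hoxb4 by 1.24 ± 0.17. NUP98-JARID1A line 2 had the highest level of all 3. The other 6 Hoxb genes on the array were too low to test, and the median over the 9 was 1.09. Of 15 Hoxc and Hoxd genes on the array 3 were tested: Hoxc9 was at −0.34 ± 0.08 (adjusted p = 0.0102), and Hoxc5 and Hoxc6, at 0.18 and 0.19, did not pass.

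Hox partners and other genes tied to such leukemias were mixed. Meis1, the classic partner of Hoxa9, read 8.05, 8.14, 7.96 and 8.07 against 7.83, 8.22 and 8.07. On this brightest probe set it did not differ beyond its spread (−0.02 ± 0.11, adjusted p = 0.917), while its other probe set gave −0.73. Pbx3, a further partner, read 5.45, 5.72, 5.48 and 5.63 against 7.0, 9.44 and 9.37 (3.03 ± 0.56, 8.17-fold, adjusted p = 0.00336), with NUP98-JARID1A line 1 the lowest of its group and a difference of 5.61 on the most changed of its probe sets. Eya1, a phosphatase and coactivator of homeobox factors, read 4.28, 4.23, 4.09 and 4.95 against 9.48, 7.02 and 9.52 (4.29 ± 0.60, adjusted p = 0.00097). Its other probe set gave 0.92. Mecom (Evi1), a stem cell zinc finger factor, was higher by 3.32 ± 0.68 and read 8.01, 9.20 and 5.83 in the NUP98-JARID1A lines. Mn1, a leukemia coactivator, was the opposite case. It read 10.31, 10.24, 10.56 and 10.00 against 5.37, 6.35 and 5.10 (−4.68 ± 0.29, 25.6-fold lower, adjusted p = 3.57e-05).

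Mycn was the gene whose probe sets were farthest apart among these. Its brightest read 13.05, 12.99, 13.22 and 12.61 against 12.27, 12.35 and 12.95, overlapping, and did not pass (−0.45 ± 0.20, adjusted p = 0.105), whereas its other probe sets gave −1.19 and −4.73. Of the 20 Hox cofactor and MLL-type target genes tested 7 were higher, 6 lower and 7 did not pass (median 0.00). With the mean of all probe sets of each gene 4 were higher and 10 lower. Among 826 genes with at least 2-fold differences and several probe sets, 9 had a probe set that went at least 2-fold the other way, and 288 (34.9%) had one that moved by less than 0.5 in the gene's direction or went the other way.

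**Figure D3:**
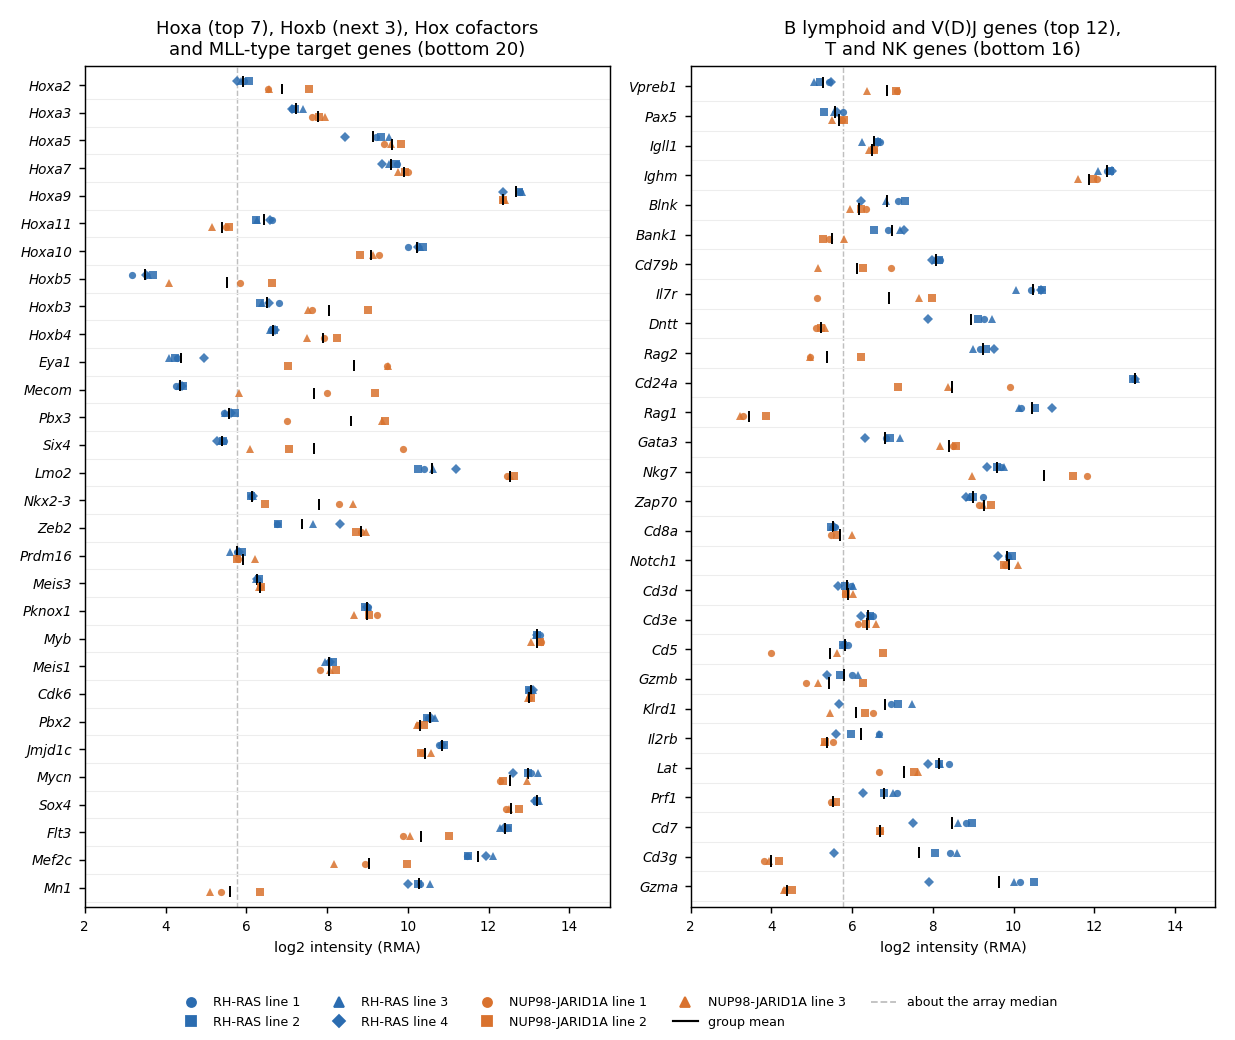
Log2 intensity (x axes) in each line for Hoxa, Hoxb and Hox cofactor genes (left) and for B lymphoid, V(D)J, T and NK genes (right), 1 row per gene tested, with colours, symbols, group mean bars and the dashed line near the array median as in the plot of granule genes. Hoxa9, Meis1, Myb and Cdk6 show groups close together, Eya1 and Pbx3 higher and Mn1 lower NUP98-JARID1A lines, and for Gzma and Cd3g RH-RAS line 4 (diamond) lies between the other RH-RAS lines and the NUP98-JARID1A lines.

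Cd34 and Kit, which mark progenitors, were well above the array median in all 7 lines, and other stem and progenitor genes differed. Cd34, a surface marker of progenitors, read 12.78, 12.66, 12.66 and 12.63 against 12.50, 13 and 12.71, overlapping (0.05 ± 0.12, adjusted p = 0.748). Erg, an ETS factor of stem cells, read 5.68, 5.66, 6.24 and 6.23 against 10.07, 10.21 and 10.11 (4.18 ± 0.17, 18.1-fold, adjusted p = 6.57e-06), while its other probe set gave 0.97. Prom1 was higher by 2.96 ± 0.67. Mllt3 (AF9), which reads acylated histones and sustains stem cells, read 10.32, 10.36, 10.42 and 9.63 against 4.61, 3.58 and 5.34 (−5.67 ± 0.40, 51.0-fold lower, adjusted p = 6.01e-05), and all 3 of its probe sets gave −4.92 or a larger decrease. Cd27, a costimulatory receptor of lymphocytes and some progenitors, read 10.10, 10.39, 9.95 and 10.65 against 6.67, 4.98 and 3.74 (−5.14 ± 0.61). Of 19 genes tested of 23 on the array, 9 were higher, 4 lower and 6 did not pass, with a median of 0.44. The other 2 lower were Nrip1† (−2.51 ± 0.21) and Bmi1, a Polycomb protein (−1.15 ± 0.11).

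Lymphoid genes held the list with the lowest median among the genes tested, that of B lymphoid and V(D)J genes. Over all its members on the array that list was at −0.43, and other lists were lower. The amino acid and unfolded protein stress genes, for example, were at −0.59. Rag1 and Rag2 code for the recombinase that joins antigen receptor gene segments. Rag1 read 10.18, 10.53, 10.14 and 10.95 against 3.29, 3.85 and 3.22, and Rag2 read 9.16, 9.30, 9.0 and 9.52 against 4.97, 6.22 and 4.95. Every RH-RAS value was far above the array median, and all but 1 of the NUP98-JARID1A values were below it. Rag1 was 128-fold lower (−7.0 ± 0.24, adjusted p = 4.34e-06) and Rag2 14.6-fold lower (−3.87 ± 0.32). Dntt, which adds untemplated bases at the joints, read 9.27, 9.11, 9.46 and 7.89 against 5.12, 5.23 and 5.33 (−3.71 ± 0.35). Cd24a, a surface protein of early B cells among others, read 12.96 to 13.03 in the RH-RAS lines and 9.92, 7.13 and 8.38 in the NUP98-JARID1A lines (−4.52 ± 0.56).

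Of 12 B lymphoid and V(D)J genes tested of 17 on the array 8 were lower (7 at least 2-fold), against the 18.5% of all genes that were lower, 1 was higher and 3 did not pass. Their median was −1.72, and −0.43 over the 17. The gene that was higher was Vpreb1† (1.56 ± 0.20), a surrogate light chain. Cd79a, Ebf1 and Ms4a1, which define B cells, were too low to test on these arrays, and Pax5† lay near the array median in both groups (0.12). No promoter of the 17 found for this list held GAGGAAGT, and 2 (11.8%) held TTNNGCAA, beside 2.44% and 9.56% of all promoters.

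Genes of T and NK cells gave 6 lower, 1 higher and 9 not past the test among 16, with a median of −0.37. Gzma, a cytotoxic granule protease, read 10.16, 10.50, 10.02 and 7.91 against 4.33, 4.50 and 4.31 (−5.26 ± 0.58, 38.4-fold lower, adjusted p = 0.000338, and −5.84 without line 4). Cd3g, a chain of the T cell receptor complex, read 8.41, 8.04, 8.60 and 5.56 against 3.82, 4.18 and 3.95. RH-RAS line 4 was the lowest of its group for both genes, and its mean of 6.49 on this list fell among the NUP98-JARID1A lines at 6.28 to 6.55, while RH-RAS lines 1 to 3 were at 7.11 to 7.21. Cd7 was at −1.78 ± 0.33, and the member that was higher was Gata3, a T lineage factor also active in stem cells (1.59 ± 0.21). Leaving out RH-RAS line 1 or NUP98-JARID1A line 3 added 1 higher member, and leaving out RH-RAS line 1 or 3 left 4 lower. Cd3d† and Cd3e†, further chains of the receptor complex, were at 0.03 and −0.04.

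Ccr9, the homing receptor of gut and thymus that plasmacytoid dendritic cells also carry, had the largest decrease of all. It read 12.54, 12.78, 12.83 and 12.12 against 4.15, 6.55 and 4.69 (−7.43 ± 0.53, 173-fold lower, adjusted p = 6.17e-05), with NUP98-JARID1A line 2 the highest of its group. Its 3 probe sets ranged from −7.43 to −5.90. H2-Aa, an MHC class II chain, was at −2.32 ± 0.28, H2-Eb1 at −1.45 ± 0.24 and the migration receptor Ccr7 at −1.85 ± 0.17. Of 14 dendritic cell and MHC class II genes 9 were lower (7 at least 2-fold), 2 were higher and 3 did not pass, with a median of −0.80, and −0.43 over the 17 on the array. The 2 higher, H2-DMa† (1.19 ± 0.19) and H2-DMb2† (0.78), help load peptides on class II molecules, and leaving out any line but NUP98-JARID1A line 2 left H2-DMa alone. The other probe set of H2-DMa gave −0.13.

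The other large decreases were in genes of varied function. Slc35d3, a transporter-like membrane protein, read 10.33, 10.33, 10.44 and 10.40 against 3.83, 5.04 and 4.01 (−6.08 ± 0.27, 67.7-fold lower, adjusted p = 8.64e-06). Malat1, an abundant nuclear RNA, was at −6.05 ± 0.31 on its brightest probe set, but its 7 probe sets ran from −6.50 to 0.29. Dsp, the desmosomal plaque protein, was at −5.71 ± 0.41, the cadherin Cdh17 at −4.92 ± 0.63 and Vegfc, the lymphatic growth factor, at −4.93 ± 0.27. Cth, which makes cysteine, was at −5.02 ± 0.50 and read 8.41, 7.65, 8.90 and 9.90 against 3.25, 4.13 and 3.72. Tmem108 (−5.18 ± 0.10), Dip2c (−3.51 ± 0.07) and the adhesion receptor Adgra3 (−5.11 ± 0.14) had the smallest adjusted p of the lower genes. Dip2c read 7.52 to 7.67 in the RH-RAS lines and 4.06 to 4.10 in the NUP98-JARID1A lines. Arpp21, a phosphoprotein of neurons and early thymocytes, was at −5.13 ± 0.19.

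The genes that carry the transforming changes were read by mouse probe sets, and whether these detect the introduced copies was not tested. Nras read 11.38, 11.43, 11.53 and 11.34 against 10.92, 11.19 and 11.06 (−0.36 ± 0.09, adjusted p = 0.0135), higher in each RH-RAS line, and its other probe sets gave −0.35 and 0.00. Dnmt3a read 10.05, 9.81, 10.37 and 9.75 against 9.17, 9.99 and 9.72 and did not pass (−0.37 ± 0.22, adjusted p = 0.207), and its 5 probe sets ran from −1.31 to 0.99. Nup98 did not pass either, at 10.16 to 10.42 against 10.27 to 10.48 (0.11 ± 0.10, adjusted p = 0.376), with another probe set at −0.60. Kdm5a, the gene of JARID1A, read 10.01, 10.40, 10.64 and 10.29 against 9.47, 9.45 and 9.43 (−0.89 ± 0.14, adjusted p = 0.00185), and its other probe sets gave −2.82, −2.69 and −0.33. Each of these Kdm5a probe sets was thus lower, not higher, in the lines named for it.

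Among writers and erasers of methylation on lysine 4 of histone H3, and Polycomb genes, 12 were lower, 5 higher and 14 did not pass of 31, mostly by small amounts (median −0.23, 1 higher and 2 lower at least 2-fold). Kmt2a (MLL), a writer, read 8.53, 8.37, 8.99 and 8.48 against 9.65, 10.22 and 9.86 (1.32 ± 0.19, adjusted p = 0.00102), although its other probe set gave 0.06. Kmt2d was at 0.99 ± 0.15 on the brightest of its probe sets and no longer passed with their mean. The eraser Kdm1b was at −1.13 ± 0.11. The other 3 higher were Wdr5†, Setd1a† and Rbbp5†, at 0.63, 0.26 and 0.26, and leaving out NUP98-JARID1A line 2 or RH-RAS line 1, 2 or 3 left 3 higher members.

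DNA methylation genes gave 4 higher, 4 lower and 6 not past the test of 14, with a median of −0.03. Tet1, which oxidises methylcytosine, read 8.95, 9.10, 9.07 and 8.67 against 4.24, 5.94 and 5.19 (−3.82 ± 0.36, 14.1-fold lower, adjusted p = 0.000175). Its other probe sets gave −1.63 and −2.06. Tet2†, of the same family, was at 0.93 ± 0.16. Dnmt3l, a partner of Dnmt3a without catalysis of its own, read 5.78, 5.48, 5.58 and 5.53 against 8.63, 7.23 and 8.88 (2.65 ± 0.36). Idh1 was at 1.62 ± 0.18. Dnmt3b was at −1.33 ± 0.39 with overlapping groups (adjusted p = 0.025) and failed the test on leaving out NUP98-JARID1A line 1 or 3 or RH-RAS line 1, 2 or 3. Of 12 genes for DOT1L and its complexes 4 were lower, none was higher (1 without NUP98-JARID1A line 2) and 8 did not pass, with Mllt3, Aff3 (−2.14 ± 0.37), Mllt6 (−0.86 ± 0.13) and Ccnt1† (−0.25) the 4, and Dot1l† itself at −0.05. Ccnt1 failed the test in 6 of the fits that left out 1 line.

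Of the RAS-MAPK feedback and target genes, which a switched-on RAS pathway is known to induce, more were higher in the RH-RAS lines than in the NUP98-JARID1A lines. Dusp6, the phosphatase that turns ERK off, read 12.59, 12.40, 12.73 and 12.57 against 11.20, 11.35 and 11.02 (−1.38 ± 0.11, 2.61-fold lower, adjusted p = 0.000107). Etv5, an ETS factor induced by ERK, read 10.79, 10.88, 11.19 and 11.37 against 9.15, 9.66 and 9.32 (−1.68 ± 0.18). Ccnd1, cyclin D1, read 11.45, 11.28, 11.70 and 11.98 against 9.70, 10.56 and 9.51 (−1.68 ± 0.27). None of these 3 genes overlapped. Spry4, a feedback inhibitor, read 7.36, 8.37, 8.18 and 8.68 against 4.19, 3.73 and 3.77 (−4.25 ± 0.30), and its other probe sets gave −0.58 to −1.06. Egr1 read 8.48, 7.90, 8.76 and 7.04 against 6.99, 5.47 and 5.95 (−1.91 ± 0.49, adjusted p = 0.0136), almost touching. Of 27 genes tested 13 were lower (7 at least 2-fold), 3 were higher and 11 did not pass, with a median of −0.43. The 3 higher were Spred3† (1.24), Fos† (1.09) and Fosl1† (0.55), and leaving out RH-RAS line 1, 2 or 3 left 2 of the list higher. Fosl1 itself failed the test in 6 of the fits that left out 1 line. Myc, often a target of the pathway, was at 11.74 to 11.94 against 11.76 to 12.07 (0.03 ± 0.10, adjusted p = 0.853).

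**Figure D4:**
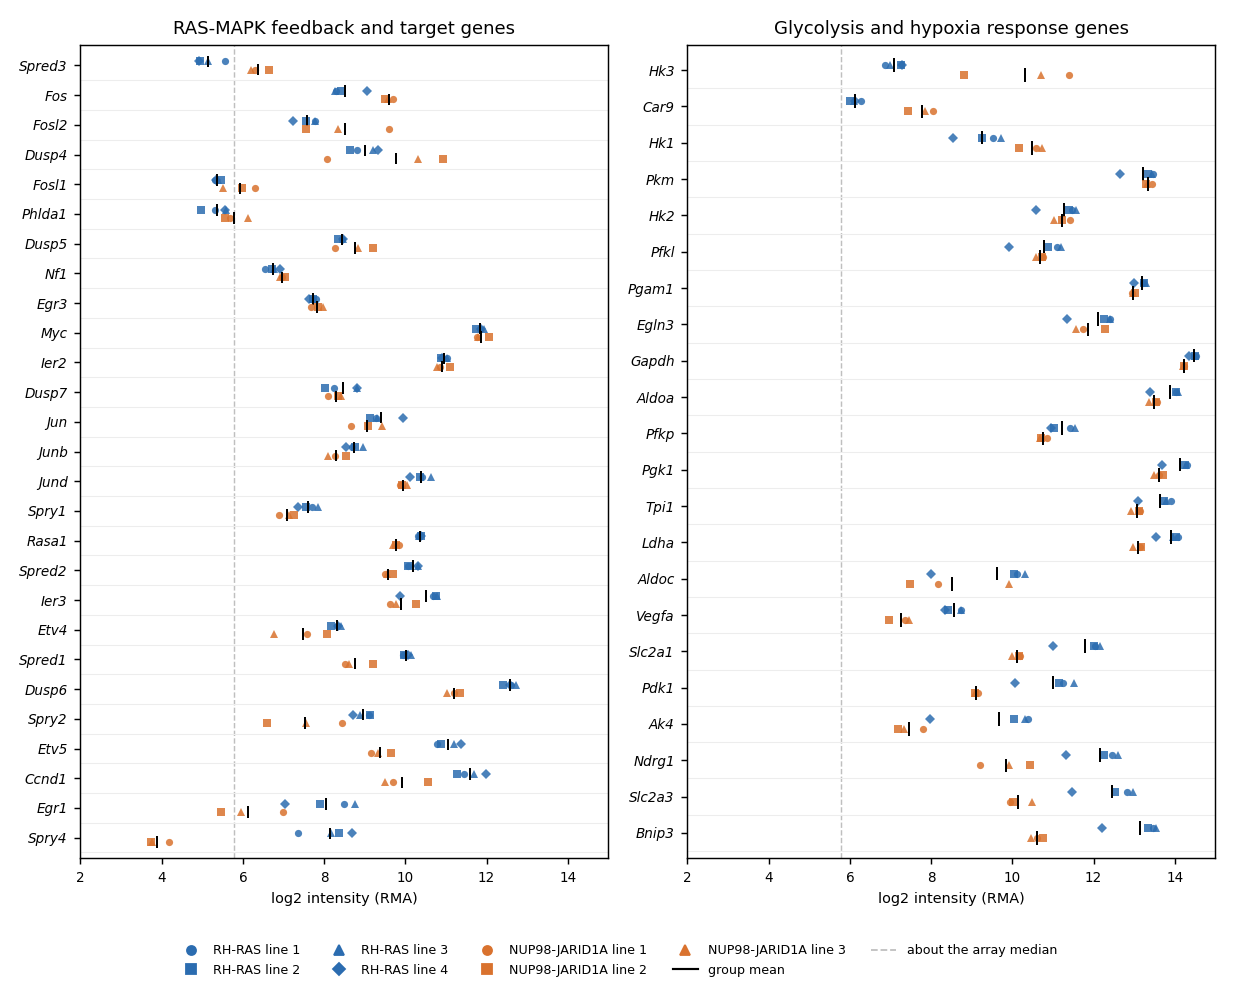
Log2 intensity (x axes) in each line for RAS-MAPK feedback and target genes (left) and for glycolysis and hypoxia response genes (right), 1 row per gene tested, with colours, symbols, group mean bars and the dashed line near the array median as in the plot of granule genes. Dusp6, Etv5, Ccnd1 and Spry4 show lower NUP98-JARID1A lines with no overlap, and for many glycolysis genes RH-RAS line 4 (diamond) lies near the NUP98-JARID1A lines.

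For metabolic genes RH-RAS line 4 often lay nearer to the NUP98-JARID1A lines than its own group did. Bnip3, a mitophagy gene of the hypoxia response, read 13.46, 13.34, 13.54 and 12.22 against 10.60, 10.76 and 10.45 (−2.54 ± 0.31, 5.81-fold lower, adjusted p = 0.000562). Slc2a3, a glucose transporter, read 12.83, 12.51, 12.96 and 11.48 against 9.93, 10.01 and 10.47 (−2.31 ± 0.35), and Ndrg1 was at −2.30 ± 0.38. Hk3, the hexokinase of myeloid cells, was higher, at 6.86 to 7.28 against 8.80 to 11.39 (3.20 ± 0.54). Of 22 glycolysis and hypoxia genes 12 were lower, 3 higher and 7 did not pass (median −0.51), and the number lower was 15 without RH-RAS line 4 and 8 without RH-RAS line 1 or 3 or NUP98-JARID1A line 3. The mean of the list was 10.86 in line 4, within the 10.79 to 10.97 of the NUP98-JARID1A lines, and 11.58 to 11.77 in RH-RAS lines 1 to 3. The 3 higher were Hk3, Car9† (1.65) and Hk1† (1.23).

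Genes of the amino acid and unfolded protein stress responses, many of them targets of the factor ATF4, were lower in 12 of 21, higher in 1 and not past the test in 8, with a median of −0.66. Stc2 was at −3.73 ± 0.58, Ddit4, an inhibitor of mTORC1, at −2.33 ± 0.25, Trib3 at −2.28 ± 0.26 and Chac1, which breaks down glutathione, at −1.86 ± 0.25. Trib3 read 8.77, 8.34, 9.23 and 9.41 against 6.38, 6.77 and 6.83. The member that was higher was Xbp1† (0.52), which failed the test on leaving out any line but NUP98-JARID1A line 2. Cholesterol synthesis genes were lower in 11 of 18, with 1 higher and 6 not past the test (median −0.52). Msmo1 was at −1.46 ± 0.13, Hmgcs1 at −1.25 ± 0.17 and Idi1 at −1.15 ± 0.16, and Ebp† was higher (0.68). Leaving out RH-RAS line 2 or 3 left 7 lower and leaving out line 4 gave 13, and line 4 averaged 10.15 against 10.46 to 10.65 in lines 1 to 3 and 9.91 to 10.03 in the NUP98-JARID1A lines.

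Replication and mitosis genes were somewhat lower in the NUP98-JARID1A lines. Of 26 tested 15 were lower, none was higher and 11 did not pass, with a median of −0.35 and only 2 at least 2-fold. Ccne2, cyclin E2, read 10.44, 10.82, 10.84 and 10.81 against 9.37, 8.27 and 8.35 (−2.06 ± 0.27). Rrm2, which makes deoxynucleotides, was at −1.11 ± 0.15 and the mitotic checkpoint kinase Bub1 at −0.94 ± 0.11. Of 25 MYC and ribosome biogenesis genes 7 were higher, 5 lower and 13 did not pass (median 0.09), with Mycl at −1.61 ± 0.08. With the probe set of largest SD per gene 10 of them were lower.

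Of 18 D cyclins, CDK inhibitors and p53 targets 8 were lower, 1 was higher and 9 did not pass (median −0.22). Cdkn1a (p21) read 11.20, 11.02, 11.31 and 10.99 against 10.28, 9.56 and 9.69 (−1.29 ± 0.18), the p53 target Zmat3 was at −2.36 ± 0.37, and Cdkn2c (p18) was the member that was higher (1.42 ± 0.12). In the Bcl2 family the death gene Pmaip1 (Noxa) was at −1.21 ± 0.11 and Bcl2 at −1.01 ± 0.24, while Bak1 (1.02 ± 0.16) and Bcl2l1 (0.90 ± 0.15) were higher. The other probe set of Bak1 gave −0.07. Altogether 5 of 13 were higher, 2 lower and 6 did not pass. The other 3 higher were Bcl2l2† (0.88, and −0.01 on its lowest probe set), Bok† (0.39) and Bad† (0.36). Bad failed the test in 3 of the fits that left out 1 line.

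Genes often taken as references passed the test about as often as other genes, 58.3% of them against 51.0% of all genes tested. Of 12, 6 were lower, 1 was higher and 5 did not pass (median −0.18), none by 2-fold or more, and 3 were lower when NUP98-JARID1A line 3 or RH-RAS line 1, 2 or 3 was left out. Actb read 14.59 to 14.67 in the RH-RAS lines and 13.72 to 13.87 in the NUP98-JARID1A lines (−0.82 ± 0.07, adjusted p = 0.000142), while its 5 probe sets ran from −1.27 to 0.30. Gusb, a lysosomal enzyme, was the higher member (0.75 ± 0.15), and did not pass with the mean of its probe sets.

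Interferon-stimulated genes were higher beyond the Ifitm family. Of 24 tested 15 were higher (13 at least 2-fold), 1 was lower and 8 did not pass, with a median of 1.08. Ifitm6 was at 2.75 ± 0.36, Ifitm2 at 2.58 ± 0.20 and Oas1a, which senses viral RNA, at 2.35 ± 0.59. The Ifitm genes are close copies that probe sets may not tell apart. Oas1a read 7.18, 6.79, 6.77 and 7.12 against 8.02, 9.04 and 10.90, with line 3 the highest, and was at 1.56 without that line. The lower member was Mx2† (−0.65), and the number lower was 3 without NUP98-JARID1A line 3 and 0 without RH-RAS line 1 or 2. NUP98-JARID1A line 3 averaged 8.91 on this list, lines 1 and 2 8.03 and the RH-RAS lines 6.97 to 7.13.

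Markers of other lineages were uneven. Of 13 mast cell and basophil genes on the array 5 were tested, 3 were higher and none was lower, against a median of −0.00 over the 13. Mcpt8, a basophil protease, read 5.68, 5.49, 5.67 and 5.30 against 11.31, 9.85 and 8.48 (4.35 ± 0.57), Mitf was at 3.11 ± 0.25 and Hdc, which makes histamine, at 2.82 ± 0.48. Fcer1a, Ms4a2 and Cma1 were too low to test. Cpa3 had overlapping groups and did not pass (−0.92 ± 0.42), but was called lower without RH-RAS line 4 or NUP98-JARID1A line 2. Of 7 eosinophil genes on the array 1 was tested, Siglecf (1.42 ± 0.15).

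Megakaryocyte genes gave 5 higher, 1 lower and 6 not past the test of 12, with Vwf at 3.72 ± 0.53, Itgb3 at 2.22 ± 0.30, Selp at 2.01 ± 0.45, Pf4† at 1.81 ± 0.10 and Gp9† at 0.36 higher and the thrombin receptor F2r at −3.71 ± 0.24 lower (2 lower without NUP98-JARID1A line 2). The other probe set of Itgb3 gave 0.39, and Gp9 failed the test in 6 of the fits that left out 1 line. Of 9 erythroid genes 4 were lower, 1 higher and 4 did not pass. These were Car2 (−4.54 ± 0.30), Hemgn (−2.96 ± 0.42), Rhd (−0.80 ± 0.19) and Epor† (−0.37), with Hba-a2 higher (2.47 ± 0.30), a globin with a near-identical copy. Of 10 stromal genes 3 were tested, and Fn1, fibronectin, which macrophages also make, was higher (3.74 ± 0.56) while the collagens were too low to test.

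**Figure D5:**
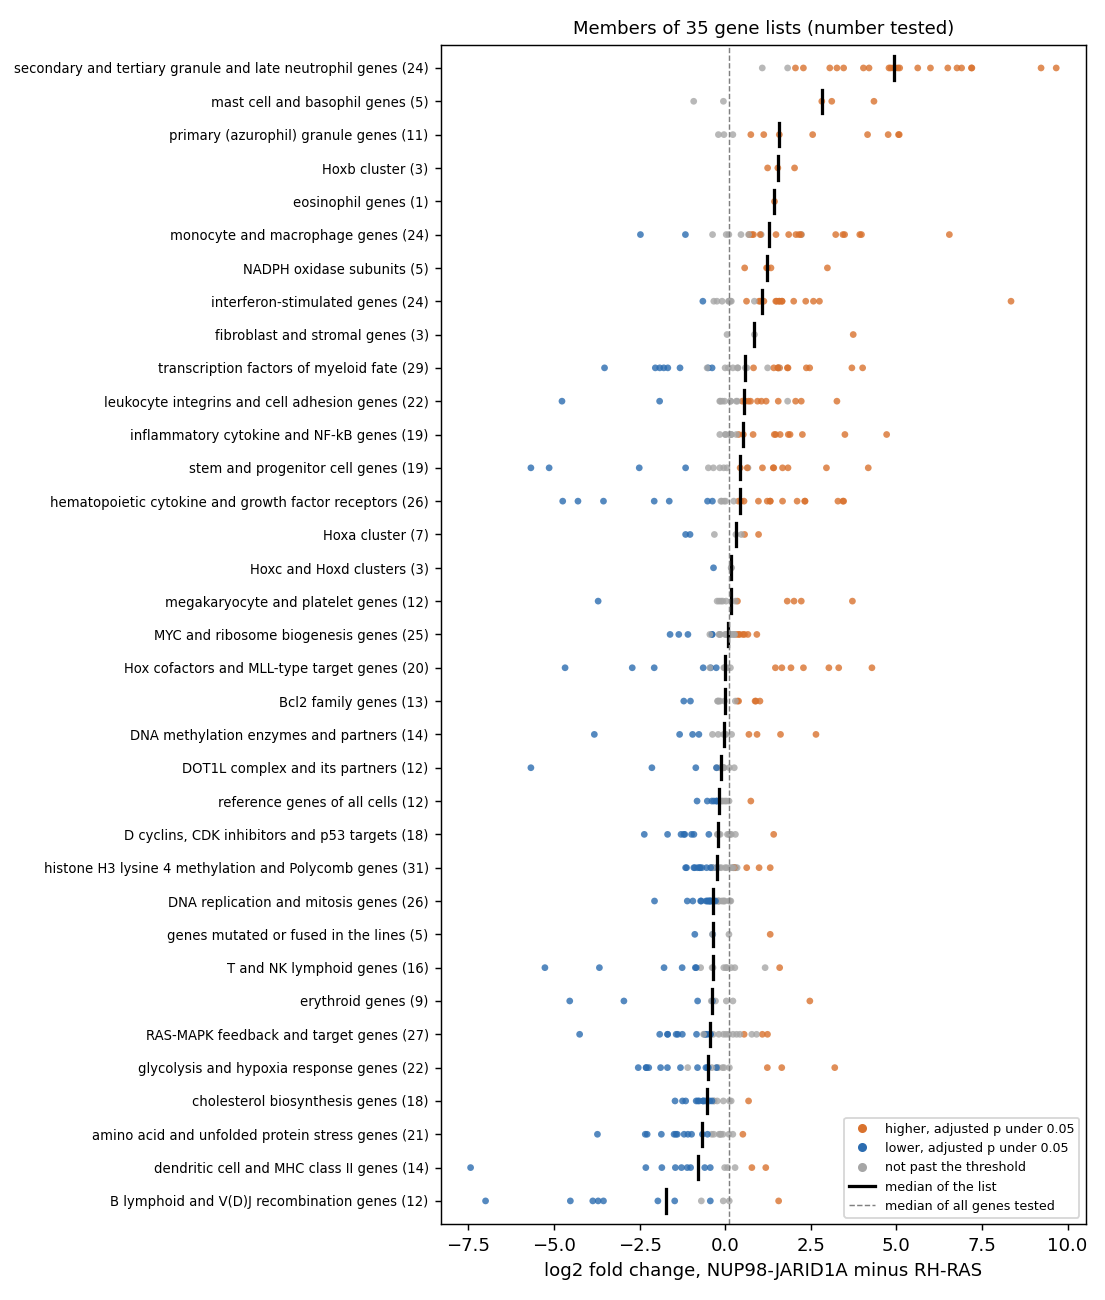
Log2 fold change, NUP98-JARID1A minus RH-RAS (x axis), of every tested member of the 35 gene lists, 1 row per list with the number tested, ordered by the median. Orange and blue points passed the test as higher or lower and grey points did not, black bars mark list medians and the dashed line the median of all genes tested. Late neutrophil genes lie at the top with a median of 4.94 and B lymphoid and V(D)J genes at the bottom with −1.72.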

How the data were processed

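RNA of 7 lines was measured on Affymetrix Mouse Genome 430 2.0 arrays, 1 per line. Per the labels and the submitters' processing notes, the authors deposited RMA values on the log2 scale. The sources used here name no RMA software, version or scan batch. Of 45101 probe sets, 34958 had 1 gene symbol in the platform annotation, 932 had several and 9211 were unlisted, and only the first were used. For each of 18194 genes the brightest probe set (by its mean across the study's 10 arrays) was kept, and the 11993 genes that exceeded the array median in 2 or more of these were tested. Groups were compared with limma 3.58.1 under R 4.3.3 (functions lmFit and eBayes, group as the sole factor, 5 residual degrees of freedom, Benjamini-Hochberg adjustment). The procedure was tried on simulated data with independent values and the same SD in both groups. That trial cannot show how the p-values behave under the unequal spread of these groups. Fold changes are ratios computed from the deposited log2 values. Named genes were the 15 largest changes in each direction without overlap, up to 4 per list, those tested of 24 fixed genes, the 3 smallest adjusted p in each direction and the 3 largest SDs in each group. Cebpe was among the 24 but was not tested. Genes marked with a dagger fall outside this rule. The comparison, its members and the 35 gene lists were chosen with earlier results of these data known. Alternatives changed the scaling, filter, probe set choice, samples, variance model, weights and threshold. List members without a probe set used here were not analysed here.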

Additional observations from a re-analysis of the deposited data

Results flagged for a closer look

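In 19 of the 173 named genes (11.0%), 1 RH-RAS line lay far from the other 3, with a gap to the nearest that took up most of the range of the group. For a single group of independent normal values chance gives such a gap in about 1 in 20. The named genes were chosen from these same data and share the same arrays, so that rate is no yardstick here. The share over all genes tested was not counted. RH-RAS line 4 was the line in 13 of the 19. It was the highest for Ccl9 (gap over range 0.905), F13a1 (0.867), F2rl3 (0.860), Ms4a6d (0.860), Zmat3 (0.837) and Csf3r (0.832). It was the lowest for Pgk1 (0.895), Aff3 (0.881), Mllt3 (0.878), Cyp51 (0.847), Bnip3 (0.846), Hoxa9 (0.839) and Nfe2 (0.831). RH-RAS line 1 was the lowest for Ccne2 (0.920) and Kdm1b (0.908) and the highest for Cd34 (0.840). RH-RAS line 2 was the highest for Aff1 (0.842). RH-RAS line 3 was the lowest for Ngp (0.915) and Papss2 (0.856). Among the NUP98-JARID1A lines, 3 in number, this was not tested.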

How the results depend on the processing

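Demanding a 2-fold change beside the adjusted p left 1241 genes higher and 644 lower, and limma's treat against a 2-fold change called 497 and 199. Leaving out 1 line at a time gave 3335 to 3811 higher and 1785 to 2101 lower genes, 150 to 159 of the 173 named genes past the threshold and 281 to 323 gene list members past it. Other scalings, filters, probe set choices, variance models and weights kept both counts within 1.5 times and reversed no named gene that passed, while 0 to 7 named genes per setting gained and 0 to 3 lost their call. Calls were lost by Dnmt3b and Pgk1 without single lines, by Smpdl3a with the replicate block and without single lines, and by Gusb and Kmt2d with other probe sets. The higher share of calls was 63.7%, 68.5% with array medians subtracted and 60.7% after quantile normalisation. With line number as a replicate block 3213 genes were higher and 1725 lower. Same-numbered lines did not deviate together (correlations −0.054, −0.019 and 0.070), and differently numbered lines gave −0.072 to 0.080. These correlations show no pairing of the lines by number. As RH-RAS lines 1 to 3 differed little from each other, they cannot exclude one. The cause of these shifts was not tested. Genes near the array median, and the spread among 3 NUP98-JARID1A lines, limit what small differences can show.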

Other observations

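The genes that varied most within a group bear on single lines. Hpgd, which inactivates prostaglandins, read 3.87, 4.94 and 11.97 in NUP98-JARID1A lines 1 to 3 and 3.04 to 3.24 in the RH-RAS lines, so that line 3 alone was far above the array median. Smpdl3a, a secreted phosphodiesterase, read 4.84, 8.95 and 11.86 against 4.20 to 4.47 (4.20 ± 1.40, adjusted p = 0.0389 in limma), and the difference was 2.55 without NUP98-JARID1A line 3. Among the RH-RAS lines, Lhx2, a LIM homeobox factor, read 3.65, 3.72, 4.34 and 7.16, with line 4 the highest, against 3.25 to 3.45 in the NUP98-JARID1A lines. Marcks, a substrate of protein kinase C at the membrane, read 7.91, 8.05, 9.17 and 5.43 against 3.76, 5.21 and 6.64, with RH-RAS line 4 the lowest of its group and among the NUP98-JARID1A values.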
